A study of Mus musculus with 868 samples.

Results

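Olanzapine is an atypical antipsychotic that blocks dopamine, serotonin, histamine and muscarinic acetylcholine receptors, and in patients it is known for weight gain and for raised blood lipids and glucose. Its targets are most studied in the brain, but several of those receptors are also made in peripheral organs, and metabolic tissues carry much of the burden of its side effects. The measurements described here are the differences between mice labelled Olanzapine and mice given 4 other drugs, read in the same 24 tissues and described for the genes that moved the same way in most tissues and for the tissues that departed from that pattern. The study as a whole holds 868 libraries in 18 groups of C57BL/6N mice, each made from flash frozen tissue with a kit that reads the end of messenger RNA next to the poly(A) tail. Olanzapine contributed 48 libraries, 2 for each tissue. The comparison used 242 libraries in all: besides olanzapine there were 48 for Alendronate and 48 for Risedronate, both bisphosphonates that slow bone resorption, and 50 for Asenapine and 48 for Lurasidone, both antipsychotics. No dose, duration or vehicle is given in the labels for these 5 groups, and all share the same strain. The labels do not say which libraries were prepared together; the 4 drugs were taken as the reference because an earlier look at these counts placed them in one set with olanzapine, and the study's untreated group and 2 vehicle groups served only as an alternative. Each olanzapine value is therefore a difference from other drugs, not from untreated mice. The 24 tissues were adrenal gland, aorta, bone marrow, brain, colon, eye, heart, ileum, jejunum, kidney, liver, lung, pancreas, parotid gland, pituitary gland, skin, skeletal muscle, skull, spleen, stomach, testis, thymus, thyroid gland and white adipose tissue. A gene entered the joint analysis when it could be tested in at least 12 tissues, which left 8156 genes.

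The named genes with the largest rise across tissues were small nucleolar RNAs (snoRNAs). Symbols ending in Rik or starting with Gm are not among the named genes; one of them, 2900060B14Rik, rose by 1.39 ± 0.04 and is given here because of that value. C/D box snoRNAs guide methylation and H/ACA box snoRNAs guide pseudouridylation of ribosomal and other RNAs, and most are cut out of introns of a host gene. Of the 4 snoRNAs tested, counts of 3 rose and those of Snord104 did not. The kit reads messenger RNA next to its poly(A) tail, and whether these counts follow the mature snoRNAs was not tested. Their sequences are shown because they lead the list and because the one that did not move belongs to the same C/D family as the one that moved most. They were read from the GENCODE M21 transcripts, with positions on mm10, and capitals mark, in the C/D RNAs, the box C letters TGATGA and the last CTGA (box D) and, in Snora30, the ACA lying 3 bases before the end, which was looked for and not found at that place in the annotated Snora81.
Snord89 (chr1:39548745-39548854, minus strand): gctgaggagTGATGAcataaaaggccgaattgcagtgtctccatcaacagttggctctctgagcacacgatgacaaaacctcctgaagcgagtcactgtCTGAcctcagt
Snora30 (chr7:127527874-127528003, plus strand): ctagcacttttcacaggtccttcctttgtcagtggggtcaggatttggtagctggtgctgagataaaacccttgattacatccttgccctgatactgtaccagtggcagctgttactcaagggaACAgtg
Snora81 (chr16:23110756-23110933, plus strand): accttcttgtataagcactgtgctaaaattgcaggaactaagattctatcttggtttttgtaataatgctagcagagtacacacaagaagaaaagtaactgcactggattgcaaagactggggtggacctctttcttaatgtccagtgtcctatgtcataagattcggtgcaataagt
Snord104 (chr11:106500993-106501062, plus strand): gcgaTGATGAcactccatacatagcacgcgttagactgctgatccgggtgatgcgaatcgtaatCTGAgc
Snora30 lies inside the annotated span of Srcap (chr7:127511983-127561219) on the same strand. Whether reads there bear on the counts of both genes was not tested.

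The olanzapine libraries held 469166 to 888512 counts (median 627838) and those of the 4 other drugs 507283 to 1877620. Levels are in CPM, counts scaled to library size after TMM normalization. A gene at 10 CPM rests on fewer than 10 counts in an olanzapine library, and small differences in low genes were not detectable in single tissues. The labels do not tie replicate numbers to mice, so p-values measure the spread between these libraries, which may be technical in part. Defining markers matched the labelled tissue: of the markers checked, only the smooth muscle gene Myh11 in aorta ranked below the top 2 tissues, at rank 3. Some olanzapine libraries stood apart. In white adipose tissue replicate 2 carried 25.4% of its counts in 8 genes of the seminal vesicle. In stomach replicate 2 held 297.5 CPM of Gkn1, a gene of the gastric surface, against 3917 in replicate 1 and at least 2789 in every reference library. In skin both olanzapine libraries held 17456 to 18086 CPM of muscle markers summed, against a reference median of 2390 and a reference range up to 25112. Results that rest on these libraries are given with and without them.

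Across tissues, 2860 of the 8156 genes met all the criteria for a shared difference, which is 35.1%. A shared gene had an adjusted p below 0.05 in a joint edgeR fit with tissue as a block, which called 4252 genes (52.1%), and in a limma test of tissue-averaged profiles, which called 3908 (47.9%), the same sign in both, and that sign in at least 75% of the tissues where it was tested. Of these, 1559 (19.1% of genes tested) were higher and 1301 (16%) lower in olanzapine. The joint fit takes libraries of different tissues as independent, although several may come from 1 mouse. Its p-values can therefore be too small, and it was never used alone. Most differences were small: the median absolute difference of shared genes was 0.26 on the log2 scale, 148 passed 0.5 and 4 passed 1, a 2-fold change. Against each of the 4 reference drugs taken alone, 2646 of the shared genes kept their sign. Compared in the same way, each drug against the other 4 with both tests passed, olanzapine had 1899 genes higher and 1821 lower and asenapine 2049 and 2029, while alendronate had 825 and 830, risedronate 736 and 678, and lurasidone 578 and 503. These comparisons share libraries with one another and are given side by side.

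Snord89 was the largest shared difference. To follow a gene over tissues, each library's log2 CPM was set against the mean of the 4 reference drugs in its tissue and averaged over tissues, which gives 2 profiles per drug. The olanzapine profiles of Snord89 stood at 1.70 and 1.68, and the 8 reference profiles between -0.32 and 0.24 with a median of 0.06, so the groups did not overlap. The difference was 1.69 ± 0.06 (SE) with a limma adjusted p of 4.41e-16. It was higher in 24 of 24 tissues and passed the edgeR test in 20 of them alone. In brain its level was 62.9 and 45.9 CPM in the olanzapine libraries against a reference range of 4.80 to 16.9 (median 11.8), and in kidney 85.3 and 101.2 against 4.01 to 41.0. In 21 tissues both olanzapine libraries lay above every reference library. Over all pairs of gene and tissue that happened in 4.96%. The exceptions were adrenal gland, jejunum and pancreas, where the ranges overlapped, and the smallest difference, 0.67 in jejunum, had an edgeR adjusted p of 0.988.

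The H/ACA RNAs Snora30 and Snora81 came next among the named genes. Snora30 stood at 1.32 and 1.35 in the olanzapine profiles against -0.37 to 0.29 (median -0.05) in the reference profiles, a difference of 1.34 ± 0.11, and was higher in 12 of 12 tissues. For Snora81 the olanzapine profiles were 1.16 and 1.21 and the reference profiles -0.53 to 0.49 (median 0.00), a difference of 1.19 ± 0.08, with 18 of 19 tissues higher. Neither pair of groups overlapped. Snord104 stood at -0.17 and -0.25 against -0.28 to 0.20 (median 0.05), inside the range of the reference drugs, and missed the shared criteria with a difference of -0.21 ± 0.09.

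Several of the named protein-coding genes that rose encode nuclear or nucleolar proteins, and they are described first. The protein-coding gene with the largest difference among those named was Lrrc47 (chr4:154011731-154021513), a leucine-rich repeat protein. It stood at 0.99 and 0.93 against -0.47 to 0.45 (median 0.00) in the reference profiles, a difference of 0.96 ± 0.07 with an adjusted p of 6.60e-11, and was higher in 22 of 22 tissues. Noc2l, which binds histones and p53 in the nucleolus, was higher by 0.89 ± 0.09 in 19 of 20 tissues. Srcap, the ATPase of a complex that places the histone variant H2A.Z, was higher by 0.80 ± 0.07 in 21 of 23. These 3 did not overlap the reference profiles. Jmjd1c, a putative histone demethylase, stood at 0.76 and 0.72 against -0.34 to 0.40 (median -0.03) and was higher by 0.74 ± 0.05 in 23 of 23 tissues. Hipk2, a nuclear kinase, rose by 0.71 ± 0.09 and the nuclear import receptor Ipo7 by 0.70 ± 0.09. The nuclear pore protein Pom121 rose by 0.68 ± 0.10.

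Ppp2r5a (chr1:191351975-191403272), a regulatory subunit of a protein phosphatase, was the most widely called of the protein-coding genes named here. Its olanzapine profiles were 0.82 and 0.85 and the reference profiles -0.34 to 0.26 (median 0.03), a difference of 0.83 ± 0.04 with an adjusted p of 2.76e-13. It was higher in 23 of 24 tissues, passed alone in 17, and lay above every reference library in 17. Tnks1bp1, which binds tankyrase, rose by 0.85 ± 0.08 with 16 of 18 tissues higher. The interleukin receptor Il1r1 rose by 0.71 ± 0.10 and the microfibril gene Fbn1 by 0.70 ± 0.09, the latter in 18 of 18 tissues. Dnajb12, a co-chaperone of the endoplasmic reticulum, rose by 0.70 ± 0.08 with 18 of 22 tissues higher, and against the other 2 antipsychotics alone it missed the shared criteria at a like difference, 0.73 (limma adjusted p 1.65e-07).

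Levels in single tissues show how even these rises were. Ppp2r5a was 48.1 and 43.3 CPM in brain against 5.94 to 33.1 (median 18.3), 156.2 and 180.1 in liver against 54.8 to 122.5, and 102.7 and 80.2 in stomach against 31.9 to 57.4, with no overlap in any of these. In testis it was 39.3 and 36.6 against 25.02 to 39.3, which overlapped. Jmjd1c was 56.9 and 77.7 CPM in kidney against 21.3 to 37.4 and 65.5 and 55.5 in testis against 22.1 to 45.4, again without overlap, but in colon it lay within the reference range at 35.3 and 51.3 against 25.7 to 58.5. Lrrc47 was 30.2 and 39.8 CPM in kidney against 12.8 to 31.9, and the ranges overlapped.

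The reference drugs differed among themselves for these genes. Relative to the mean of the 4, Lrrc47 averaged 0.41 in alendronate, 0.10 in risedronate, -0.41 in asenapine and -0.09 in lurasidone, and Ppp2r5a 0.26, -0.03, -0.29 and 0.08. Ipo7 had the widest spread of the named genes that rose, from 0.34 in alendronate to -0.70 in asenapine. The snoRNAs did not follow this order: Snord89 was 0.16 in alendronate, -0.27 in risedronate, 0.07 in asenapine and 0.05 in lurasidone.

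**Figure D1:**
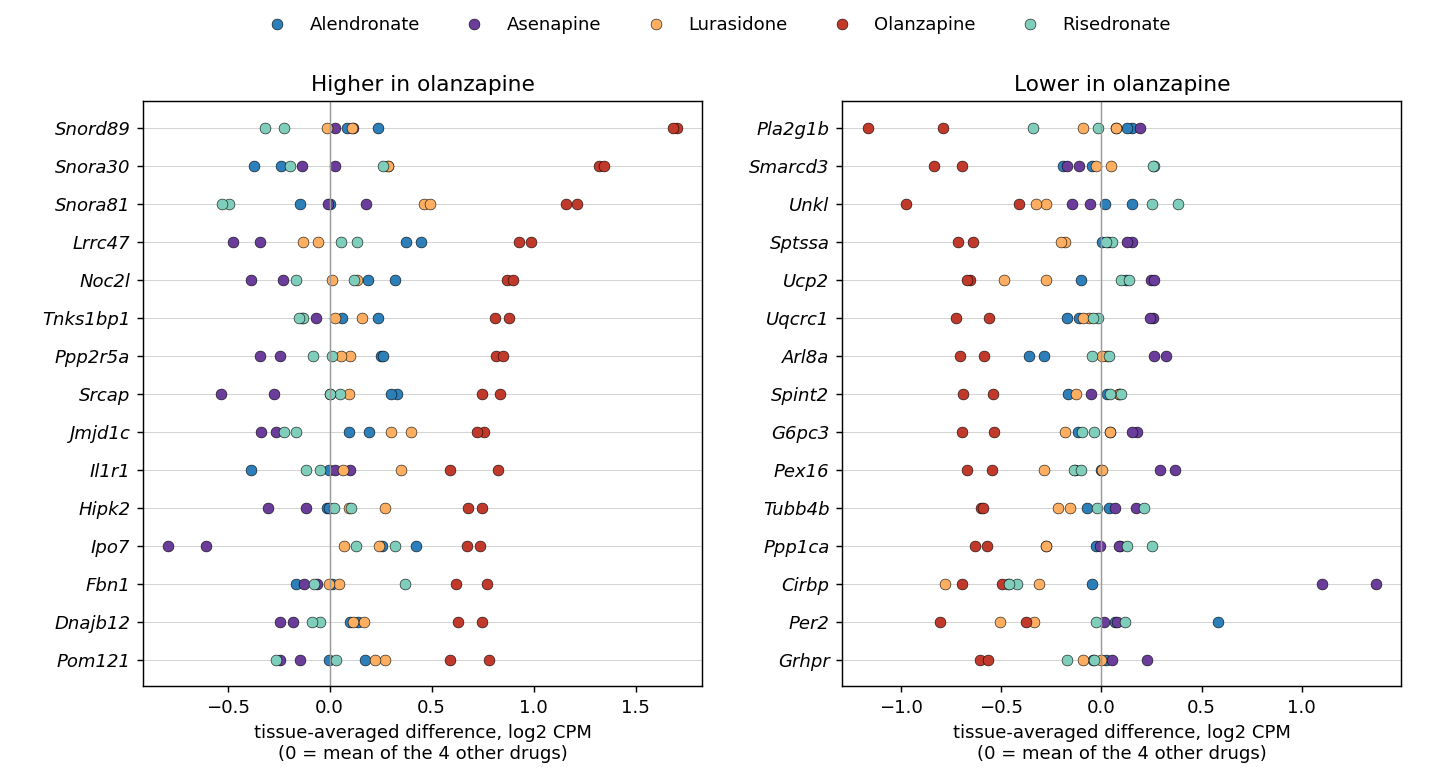
Tissue-averaged log2 CPM differences of the 30 named shared genes in the 10 profiles, 2 for each drug, each set against the mean of the 4 reference drugs in the same tissue. The 2 olanzapine points of Snord89 stand at 1.70 and 1.68 above reference profiles of -0.32 to 0.24, while both points of Cirbp and 1 of the 2 of Per2 lie within the reference range.

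Of the 15 named genes that fell, Uqcrc1 (chr9:108936633-108949623), a core subunit of respiratory complex III, was called in the most tissues. Its olanzapine profiles stood at -0.56 and -0.73 and the reference profiles at -0.17 to 0.26 (median -0.05). The difference was -0.64 ± 0.04 with an adjusted p of 2.26e-11, lower in 21 of 24 tissues, and 12 tissues passed alone. In 15 tissues both olanzapine libraries lay below every reference library, which held for 5.77% of all pairs of gene and tissue. Sptssa, a small subunit of serine palmitoyltransferase, the first enzyme of sphingolipid synthesis, stood at -0.64 and -0.72 against -0.20 to 0.15 (median 0.03) a difference of -0.68 ± 0.05, and was lower in 22 of 24 tissues. Ucp2, an uncoupling protein of the mitochondrial inner membrane, was at -0.66 and -0.67 against -0.49 to 0.26 (median 0.11), a difference of -0.66 ± 0.07, and lower in 19 of 19 tissues. None of these 3 overlapped the reference profiles. In liver Uqcrc1 was 63.1 and 61.1 CPM against 94.8 to 124.6 (median 107.7) and in testis 47.2 and 54.2 against 74.0 to 128.8 (median 97.2), while in bone marrow it was 77.3 and 56.6 against 31.4 to 68.8, where the ranges overlapped. Sptssa was 23.1 and 16.3 CPM in kidney against 35.4 to 77.5 and did not overlap there. Smarcd3, a subunit of the SWI/SNF chromatin complex, differed by -0.77 ± 0.09 and was lower in 11 of 12 tissues. Grhpr, a glyoxylate reductase, differed by -0.58 ± 0.07 and was lower in 19 of 19.

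The remaining named genes that fell were of mixed function. The difference was -0.69 ± 0.11 for Unkl, a zinc finger protein, and -0.61 ± 0.07 for G6pc3, a glucose-6-phosphatase, and each was lower in all but 1 of the tissues tested. For Pex16, needed to build peroxisomes, it was -0.61 ± 0.08. For the tubulin Tubb4b and the phosphatase catalytic subunit Ppp1ca it was -0.60 ± 0.06 and -0.60 ± 0.07. For the lysosome positioning GTPase Arl8a it was -0.64 ± 0.07, and this call was lost, at -0.54 to -0.57, without replicate 1 of Alendronate or Risedronate, replicate 4 of Asenapine or replicate 2 of Lurasidone. The protease inhibitor Spint2 differed by -0.62 ± 0.07 but was higher by 2.64 in white adipose tissue, whose olanzapine replicate 2 held the seminal vesicle genes, and without replicate 2 it missed the shared criteria at a like difference, -0.63 (limma adjusted p 1.52e-05). Pla2g1b, the pancreatic phospholipase, had the widest spread: -0.999 ± 0.11 over tissues with single tissues from -5.59 to 0.65, and its call was lost with no filter on low counts (-0.55), without olanzapine replicate 2 (-0.72) and without any of 4 reference replicates (-0.81 to -0.90).

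Per2 and Cirbp met the criteria narrowly. Per2, a repressor in the circadian clock, stood at -0.80 and -0.38 in the olanzapine profiles against -0.50 to 0.58 (median 0.04), so the ranges overlapped. Its difference was -0.59 ± 0.16 with a limma adjusted p of 0.0265. Cirbp, a cold-inducible RNA-binding protein, was at -0.70 and -0.50 against -0.78 to 1.37 (median -0.37), again overlapping, with a difference of -0.59 ± 0.17 and an adjusted p of 0.0298. The mean of the asenapine profiles was 1.24 for Cirbp and those of the other 3 drugs -0.26 to -0.55, so asenapine alone stood above the other drugs. Without olanzapine replicate 1 neither gene was called, Per2 at -0.34 and Cirbp at -0.50. Without Asenapine they stood at -0.55 and -0.22 and were not called, but Per2 was called there with a term for replicate number added. Per2 was not called against the 2 antipsychotics (-0.40), nor Cirbp against the 2 bisphosphonates (-0.25). Cirbp was also not called without olanzapine replicate 2, at -0.69.

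**Figure D2:**
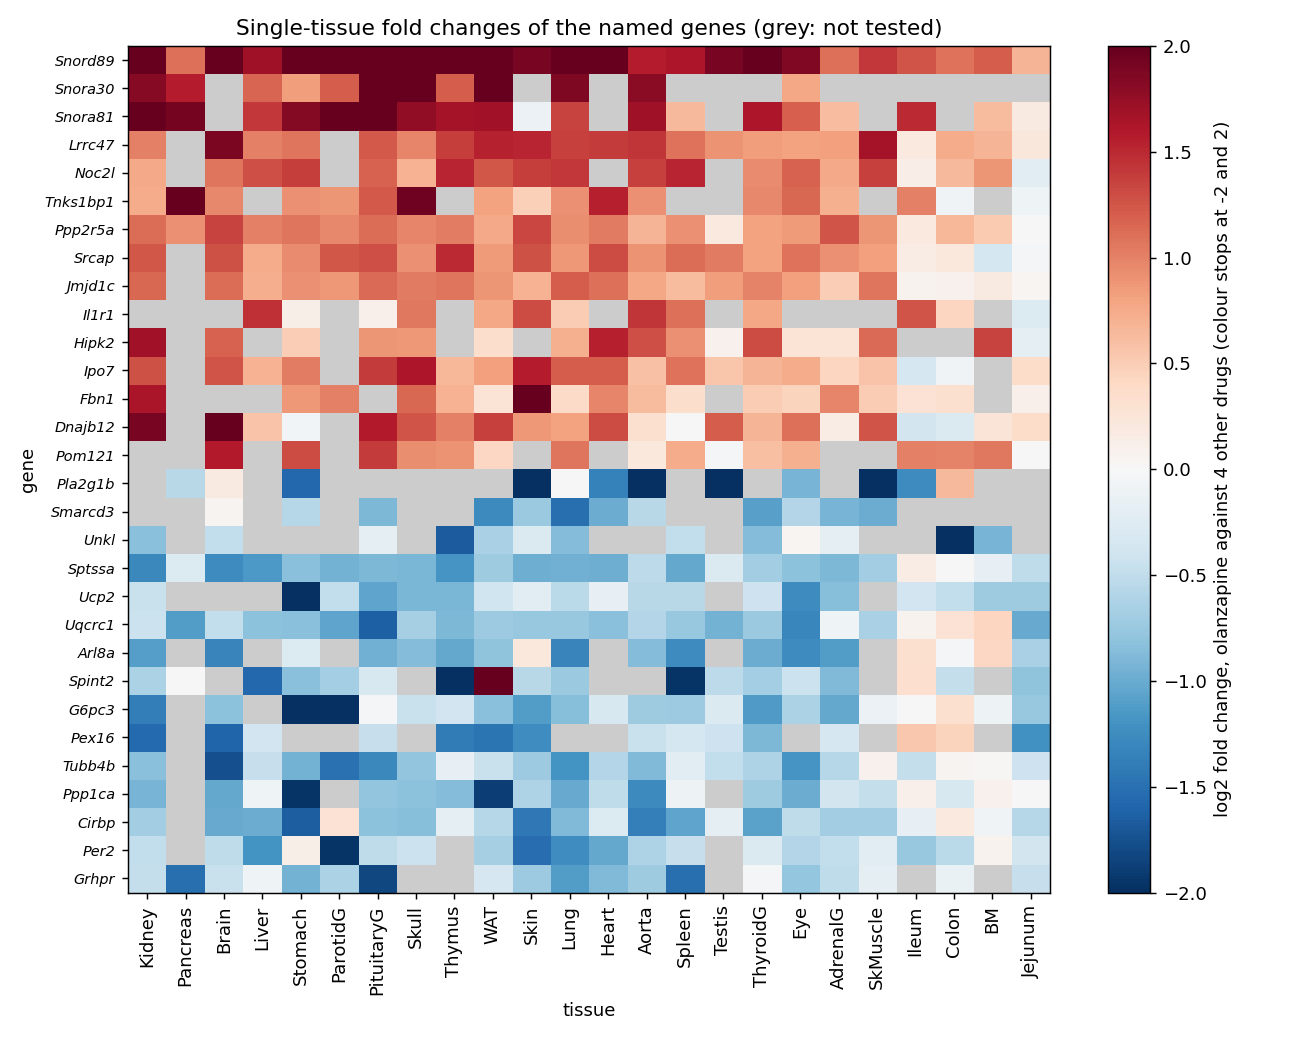
Log2 fold change of the named shared genes (rows) in each of the 24 tissues (columns), olanzapine against the 4 other drugs, from the single-tissue edgeR fits; colours stop at -2 and 2, and grey marks a gene not tested there. Snord89 is higher in all 24 tissues, and the columns of jejunum, bone marrow, colon and ileum are the palest for the set as a whole.

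The genes of cytosolic ribosomes fell together. Of 35 ribosomal protein genes tested from a fixed list, 33 fell and 1 rose, where 16% of all genes fell and 19.1% rose. The median difference was -0.22, against -0.01 for all genes tested. Rpl32, of the large subunit, fell most, with olanzapine profiles of -0.51 and -0.52 against -0.25 to 0.17 (median 0.03). It was lower in 24 of 24 tissues and passed alone in 11, including brain, where it was 31.4 and 32.8 CPM against 69.4 to 107.7. Rps18 of the small subunit differed by -0.37 ± 0.02 and Rps3 by -0.31 ± 0.03, each lower in 24 of 24 tissues. The list's median was below that of all genes in 24 of 24 tissues, and of 840 tests of a ribosomal gene in a single tissue 180 were called lower and 0 higher, against 4.55% called in either direction over all genes and tissues. Over all 80 genes with ribosomal protein symbols 66 fell and 3 rose. Of 76 mitochondrial ribosomal genes, 23 fell and 4 rose.

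The respiratory chain moved the same way. Of 21 genes, 14 fell and 0 rose, against 16% and 19.1% of all genes, with a median of -0.19. After Uqcrc1 the largest fall was in Uqcrfs1, the iron-sulphur subunit of complex III, at -0.44 and -0.51 against -0.24 to 0.13 (median 0.06). Ndufa4 differed by -0.36 ± 0.04, the ATP synthase subunit Atp5b by -0.33 ± 0.02 in 24 of 24 tissues, and the cytochrome oxidase subunit Cox4i1 by -0.33 ± 0.03. The list's median lay below that of all genes in 21 of 24 tissues. By gene symbol, 29 of 41 genes of complex I fell and 0 rose.

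More lysosomal and proteasomal genes fell than rose, where 16% of all genes fell and 19.1% rose. Of 17 lysosomal genes, 10 fell and 0 rose, among them the glycosidase gene Hexa (-0.36 ± 0.06), Lipa (-0.34 ± 0.06), which hydrolyses cholesteryl esters, and the protease Ctsz (-0.29 ± 0.05). Of 20 proteasome genes, 11 fell and 4 rose. The catalytic core subunits Psmb2 (-0.32 ± 0.06) and Psmb6 (-0.28 ± 0.04) fell, whereas the ATPase subunit Psmc1 rose by 0.32 ± 0.04 in 23 of 24 tissues and the ubiquitin receptor Psmd4 by 0.18 ± 0.03. The list had no common direction. Of 16 hypoxia and glycolysis genes, 4 fell and 1 rose: Tpi1 (-0.42 ± 0.04), the glucose transporter Slc2a1 (-0.43 ± 0.07), Aldoa and Pgam1 fell and the angiogenic factor Vegfa rose by 0.27 ± 0.05.

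Of all genes tested 35.1% were called, 19.1% higher and 16% lower, and the lists tied to metabolism and drug response lay on both sides of that share. In sterol synthesis 3 of 16 genes fell and 0 rose, among them Fdps (-0.40 ± 0.08) and Fdft1 (-0.27 ± 0.06). In fatty acid synthesis 2 of 12 fell and 0 rose: Srebf1 (-0.46 ± 0.12), the transcription factor of lipogenesis, and Thrsp (-0.46 ± 0.13), both with olanzapine profiles that overlapped the reference range. Among 11 genes of fasting and fatty acid oxidation, members including Cpt1a (0.34 ± 0.09) and Acadm (0.24 ± 0.04) rose and Ucp2 fell. Among 10 genes of insulin and FOXO signalling, the muscle ubiquitin ligase Fbxo32 rose by 0.33 ± 0.06 and Foxo1 (-0.21 ± 0.05), Sesn1 (-0.45 ± 0.06) and Klf15 (-0.44 ± 0.10) fell. Of 6 xenobiotic genes Abcb1a, the efflux pump P-glycoprotein, rose by 0.25 ± 0.08. None of 14 glucocorticoid targets met the criteria in either direction.

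Stress and immune lists were mixed, and 35.1% of all genes were called. Of 13 genes of the unfolded protein response, Pdia4 and Atf4 rose and Herpud1 and Manf fell. Pdia4, a disulphide isomerase of the endoplasmic reticulum, stood at 0.80 and 0.53 against -0.67 to 0.40 (median 0.14), a difference of 0.67 ± 0.06, and passed alone in 9 tissues. In kidney it was 103.1 and 79.5 CPM against 28.1 to 57.2. Herpud1 differed by -0.50 ± 0.08, Manf by -0.37 ± 0.05 and Atf4 by 0.17 ± 0.04. Of 10 NRF2 targets, Gclm (0.44 ± 0.07), a subunit of the rate-limiting enzyme of glutathione synthesis, and Txnrd1 (0.37 ± 0.04), in 23 of 23 tissues, rose, while Gsta3 and Taldo1 fell. Of 12 interferon genes tested, Rsad2 (0.26 ± 0.06), Gbp2 (0.22 ± 0.09) and Rtp4 (0.31 ± 0.10) were among those that rose, and the immunoproteasome subunit Psmb8 fell. Of 15 heat shock genes Hspa4l rose and Hspe1 and Bag3 fell, of 13 immediate early genes Klf6 rose and Zfp36 fell, and of 8 p53 targets Sesn1 fell.

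Among structural and nuclear RNAs, Timp2 (0.35 ± 0.03), an inhibitor of matrix proteases, Mmp14 (0.33 ± 0.12) and Bgn (0.20 ± 0.04) rose of 18 matrix genes and 0 fell. Malat1, a long RNA kept in the nucleus, stood at 0.51 and 0.47 in the olanzapine profiles against -0.54 to 0.42 (median 0.05), a difference of 0.49 ± 0.04, and passed alone in 17 tissues. Of 15 nuclear RNAs and splicing factors 6 rose, including the kinases Clk1 (0.27 ± 0.05) and Clk4 (0.25 ± 0.05), and 3 fell. Of 10 cell cycle genes, Mki67 (0.47 ± 0.07) and Top2a (0.53 ± 0.15) rose and Pcna, Mcm6 and Tubb5 fell, so the list has no common direction. In thymus Top2a was 1623 and 1994 CPM against 701.1 to 1482. Of 133 zinc finger genes by symbol, 31 (23.3%) rose and 8 (6.02%) fell, against 19.1% and 16% of all genes.

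The circadian clock genes were lower in part. Of 13 tested, Per2, Per3 (-0.44 ± 0.10), Tef (-0.54 ± 0.16) and Bhlhe40 (-0.36 ± 0.08) fell and Clock (0.27 ± 0.04) and Rora (0.23 ± 0.04) rose, with a median of -0.24. Of all genes tested 16% fell and 19.1% rose. Per1 stood at -0.31, Nr1d1, Nr1d2 and Hlf also missed the criteria. The olanzapine replicates were apart for several of these genes. Replicate 1 was below replicate 2 in 20 of 24 tissues for Per1 and 20 of 24 for Tef. This held in 19 of 24 for Nr1d2 and 18 of 20 for Nr1d1. It was 11 of 20 for Bhlhe40, 8 of 15 for Bhlhe41, 6 of 13 for Cry1 and 9 of 24 for Clock. Tef stood at -0.77 and -0.30 in the olanzapine profiles against -0.50 to 0.38, so only replicate 1 lay outside the reference drugs, and the same held for Per3 at -0.62 and -0.25 against -0.49 to 0.51. The time of day of collection is not in the labels used here, and its part in these values was not tested.

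Promoters of 11 of the 13 clock genes were found in the RefSeq table (GRCm38.p6, 250 bases before to 50 bases after the start). The E-box CACGTG, which the CLOCK and BMAL1 proteins bind, was in 4 of them (Per1, Cry1, Tef and Bhlhe41) and in 7.15% of 32851 promoters. The D-box letters TTACATAA, TTACGTAA, TTATATAA and TTATGTAA, searched on both strands and bound by factors such as Tef itself, were in Per3 and in 1.59% of promoters. A clock gene was counted when any of its promoters matched, while the percents are of single promoters, so they are not like measures. The promoters of Tef and Per3 are shown because they belong to clock genes that fell and hold a match, which is in capitals.
Tef promoter (chr15:81802423-81802722, plus strand): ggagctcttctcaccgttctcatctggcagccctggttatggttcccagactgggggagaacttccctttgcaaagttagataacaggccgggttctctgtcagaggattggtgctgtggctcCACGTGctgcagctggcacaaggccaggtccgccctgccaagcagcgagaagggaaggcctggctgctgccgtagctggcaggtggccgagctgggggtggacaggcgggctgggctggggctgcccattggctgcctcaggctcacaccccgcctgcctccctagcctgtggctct
Per3 promoter (chr4:151044616-151044915, minus strand): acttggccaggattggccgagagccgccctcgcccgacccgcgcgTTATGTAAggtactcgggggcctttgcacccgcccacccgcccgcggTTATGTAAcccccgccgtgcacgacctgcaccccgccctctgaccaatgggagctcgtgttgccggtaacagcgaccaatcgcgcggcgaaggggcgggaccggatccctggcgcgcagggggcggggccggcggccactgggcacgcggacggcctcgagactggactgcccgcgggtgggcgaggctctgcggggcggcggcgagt
The E-box of Tef lies 127 bases before the start and the D-boxes of Per3 205 and 158 bases before it. Of the 4 clock genes with an E-box, Tef fell and Per1, Cry1 and Bhlhe41 missed the criteria.

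Lists of other cell types gave little over all tissues, where 35.1% of all genes were called. In bulk tissue fewer cells of a type and less RNA per cell cannot be told apart. Of 8 muscle and 11 exocrine pancreas genes and of 6 adipocyte genes none met the criteria in either direction. Of 6 myeloid genes S100a9 (0.59 ± 0.16) and Csf1r (0.23 ± 0.05) rose, and of 2 epidermal genes Dsp rose by 0.48 ± 0.05. None of the 17 receptor genes that olanzapine binds reached 12 tissues. In the 28 single-tissue tests they did reach, 3 were called, where 4.55% of all pairs of gene and tissue were. All 3 were Chrm2, the muscarinic M2 receptor, which was higher in brain, heart and stomach. Each of the 3 calls was lost when 1 olanzapine library was left out: the brain difference was 1.12 without replicate 1 (adjusted p 0.303 by edgeR), and without replicate 2 the heart difference was 0.46 (adjusted p 0.32) and the stomach difference 0.03 (adjusted p 0.983).

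The shared differences ran with transcript length and base composition. Across 7887 genes with an annotated transcript, 96.7% of those tested, the Spearman correlation of the olanzapine difference was 0.40 with transcript length and -0.37 with GC content, given as a description since genes are not independent. In the quintile of genes with the shortest transcripts (median 1290 bases) 5.64% rose and 34.2% fell. In the quintile with the longest (median 7191 bases) 38.3% rose and 4.5% fell. From the lowest to the highest quintile of GC content the share that rose went from 32.9% to 5.96% and the share that fell from 7.16% to 25.5%. For the other drugs, each against the remaining 4, the correlations with length and GC were 0.08 and -0.37 for alendronate, -0.10 and -0.11 for risedronate, -0.35 and 0.49 for asenapine and -0.03 and 0.23 for lurasidone. Ribosomal and respiratory chain genes are short, so those lists sit where genes fell more often than they rose. The labels do not say how the libraries of a drug were prepared, and drug and library preparation cannot be told apart in these groups.

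**Figure D3:**
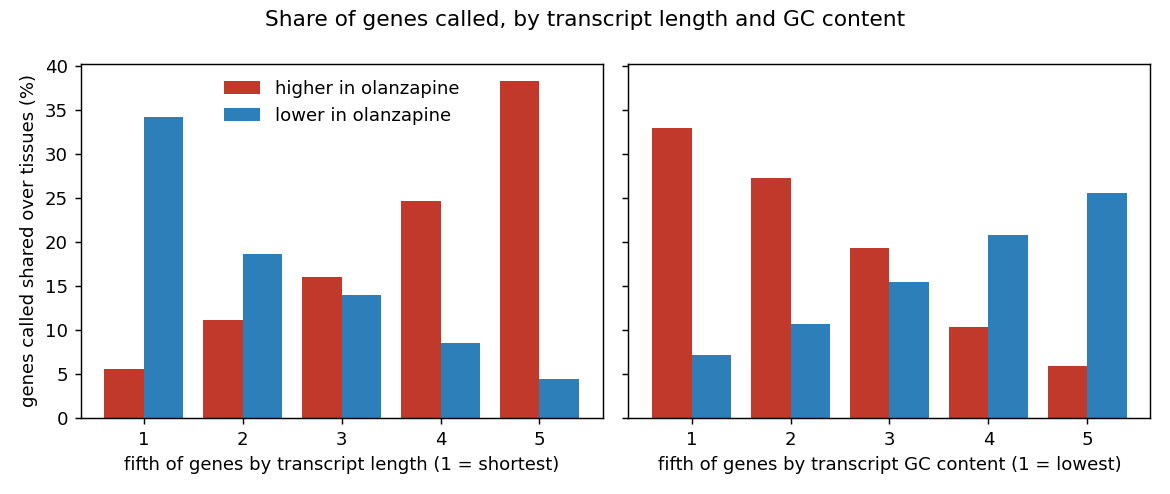
Percent of genes called higher (red bars) and lower (blue bars) in olanzapine over tissues, by quintile of transcript length and of transcript GC content. The share called higher goes from 5.64% in the shortest to 38.3% in the longest quintile of transcripts, and the share called lower from 34.2% to 4.5%.

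With a smooth term for length and GC removed from each library's differences, 1205 genes rose and 1066 fell of 7887, and 974 and 740 of them had been called in the same direction before, of 1508 and 1258 with an annotated length. The ribosomal list went from 33 lower and 1 higher to 22 lower and 4 higher. The respiratory chain stayed at 14 lower, with 1 higher. The lysosomal list went from 10 to 5 lower with 1 higher, and the proteasome from 11 lower and 4 higher to 5 lower and 6 higher. The clock list kept 4 lower but lost both higher calls. None of the 30 named genes changed sign, and Cirbp lost its call. Of 136 other shared list members 32 lost the call and 11 changed sign. Among those that lost it were Abcb1a (0.16), Thrsp (-0.29), Top2a (0.42), Fdft1, Fbxo32, Klf6, Hspa4l, Rsad2 and Bag3.

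Set against all 18 groups of the study, many shared genes were at the edge of the range. The levels are means over tissues of log2(CPM + 1), and whether the other 13 groups were prepared together with these 5 is not in the labels, so this order is a description. Of the 1559 genes that rose, 423 were highest in olanzapine among the 18 groups and 183 were in the lower 9 places. Of the 1301 that fell, 395 were lowest and 176 were in the upper 9. Among the 5296 genes not shared, 418 were at either end. Lrrc47 was highest in olanzapine, at 5.08 against 3.61 to 4.53 in the 4 reference drugs and 3.70 to 4.79 in the other 13 groups. Malat1, Jmjd1c, Srcap, Noc2l, Fbn1 and Hipk2 were also highest there. Uqcrc1 was lowest, at 5.72 against 6.27 to 6.67 and 6.37 to 7.60, and Sptssa, Smarcd3, Pex16, Arl8a, Herpud1 and Tpi1 were lowest too. Snord89 was different: at 5.94 it was above the 4 reference drugs (3.85 to 4.35) but 10th of 18, with 9 of the other 13 groups above it. Snora81 was 10th and Snora30 was 5th. Per2 was 16th and Tef 17th. Ucp2, which fell, was 6th highest: at 4.73 it was below the 4 reference drugs (5.03 to 5.72) but above the untreated group (4.34).

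**Figure D4:**
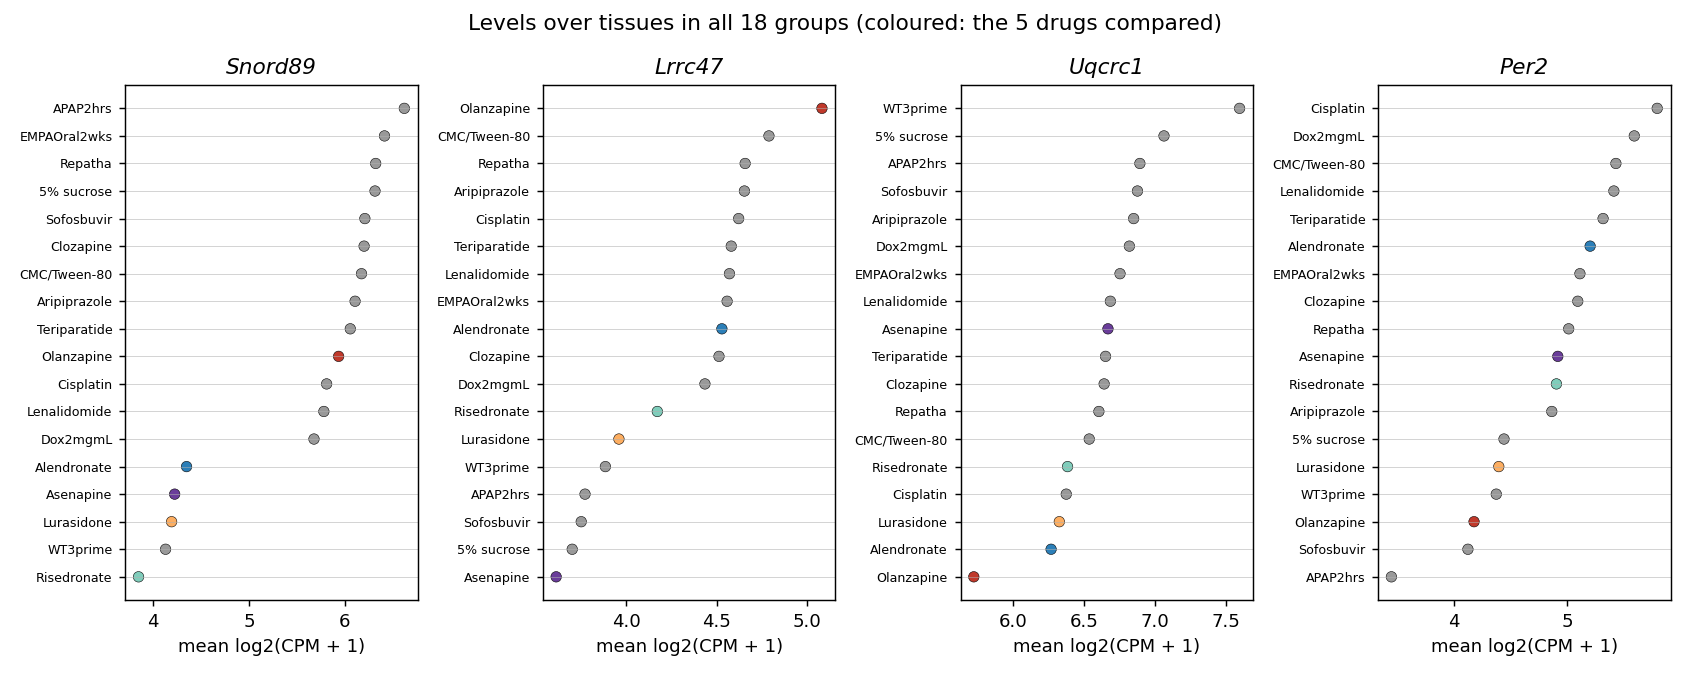
Mean log2(CPM + 1) of Snord89, Lrrc47, Uqcrc1 and Per2 in each of the 18 groups. Olanzapine, the 4 reference drugs and the other 13 groups are marked apart. Means are over the tissues where the gene was tested, 24 for Snord89 and Uqcrc1, 22 for Lrrc47 and 21 for Per2. Lrrc47 is highest and Uqcrc1 lowest in olanzapine, while Snord89 in olanzapine (5.94) is above the reference drugs and below 9 of the other groups.

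To see how far the shared differences hold in each tissue, the shared genes were chosen again on the other 23 tissues and read in the tissue left out. In most tissues over 80% of the genes chosen as higher had the same sign in the left-out tissue. Brain was highest at 94.2% of higher and 92.5% of lower genes, with medians of 0.40 and -0.37. Kidney followed at 93% and 90%, with medians of 0.42 and -0.33. In 4 tissues the shared differences were small or gone. Bone marrow had the same sign for 59.2% of higher and 51.2% of lower genes with medians of 0.06 and -0.00, colon for 64.5% and 53.5% with 0.09 and -0.02, ileum for 64% and 57.1% with 0.09 and -0.04, and jejunum for 51.1% and 60.2% with 0.01 and -0.05. The median difference of all genes was within 0.02 of zero in these tissues. Skin (83.2% and 68.5%) and testis (85.6% and 73.9%) were lower for the genes that fell than for those that rose.

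**Figure D5:**
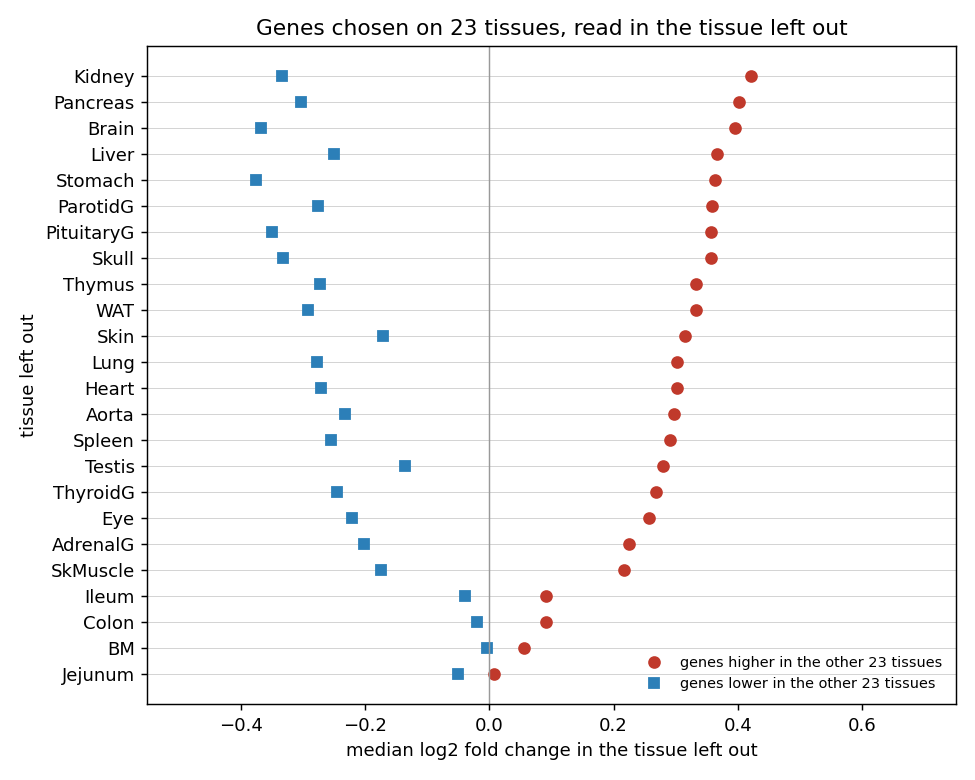
Median log2 fold change in each left-out tissue of the genes called higher and of the genes called lower in the other 23 tissues. The medians reach 0.42 and -0.33 in kidney, 0.40 and -0.37 in brain and 0.36 and -0.38 in stomach, and are near zero in jejunum, bone marrow, colon and ileum.

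In those 4 tissues the correlation of the difference with transcript length was also low, at 0.02 in bone marrow, 0.07 in colon, 0.12 in ileum and -0.03 in jejunum, against 0.11 (skin) to 0.36 (pancreas) in the other 20. Snord89 stood above every reference library in 3 of them: 31.5 and 29.1 CPM against 4.72 to 25.8 in bone marrow, 39.5 and 33.0 against 8.57 to 30.7 in colon, and 43.3 and 41.9 against 6.51 to 28.2 in ileum. It passed the edgeR test in colon alone of these (adjusted p of 0.00938, against 0.203 in bone marrow and 0.115 in ileum), and in jejunum the ranges overlapped. Uqcrc1 was one of the genes whose response in bone marrow and in colon differed from that of the other 23 tissues. Without these 4 tissues 3213 genes were shared, 1687 higher and 1526 lower.

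Single tissues differed widely in the number of genes called by edgeR alone. Stomach had 804 genes higher and 822 lower (18.4% of those tested), skin 837 and 414 (13.4%), brain 589 and 433 (11.7%), kidney 455 and 338 (9.19%), thymus 424 and 293 (8.32%), pituitary gland 351 and 207 (6.18%), white adipose tissue 248 and 195 (4.79%) and skull 230 and 156 (4.44%). Bone marrow had 7 and 1 (0.106%). Called in either direction were 5.11% of genes in heart, 4.81% in pancreas, 4.19% in liver, 3.6% in testis, 3.06% in lung, 2.96% in spleen, 1.52% in parotid gland, 1.47% in eye, 1.34% in skeletal muscle, 1.12% in adrenal gland, 1.1% in colon, 0.67% in aorta and 0.429% in thyroid gland. Ileum and jejunum had 0 by edgeR, with 795 and 467 genes at an unadjusted p under 0.05, and 0 and 3 by DESeq2, while an edgeR fit with only the 5 drugs called 11 and 70. Over all tissues 3474 of the shared analysis' genes were called in at least 1 tissue, 160 were called higher in 6 or more and 81 lower in 6 or more, and 130 were called higher in one tissue and lower in another. With 2 olanzapine libraries a tissue, these counts depend on each of them: without replicate 1 or replicate 2, stomach had 1692 or 140 calls, thymus 725 or 10, white adipose tissue 298 or 28, skin 286 or 614, brain 307 or 368, kidney 193 or 182, pituitary gland 120 or 125 and skull 41 or 27. They also depended on the scaling, the reference and the fit. Without TMM factors white adipose tissue had 36 calls. Against the 2 bisphosphonates brain had 208, kidney 316, pituitary gland 187, thymus 424 and skull 47, and against the 2 antipsychotics brain had 1795, kidney 1210, pituitary gland 875, skull 787 and skin 401. With only the 5 drugs in the fit stomach had 1034, brain 675, skull 233 and liver 63.

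In brain, where olanzapine acts on behaviour, the genes with the largest rise were Mgat5, a glycosyltransferase, at 10.8 and 13.1 CPM against 0.85 to 4.43 (median 1.82), Snord89, Dnajb12 at 19.6 and 20.99 against 2.21 to 7.28, and Lrrc47 at 28.5 and 34.1 against 1.82 to 20.05. The groups did not overlap for any of these. The edgeR difference of Mgat5 was 2.60 ± 0.49, adjusted p 0.000155. Most of the genes with the largest fall had 3 or fewer counts in the olanzapine libraries together and are given no fold. The protease Adamts13 was at 3.93 and 1.31 CPM against 5.25 to 20.05, a difference of -2.22 ± 0.54. Of the NRF2 targets, Gclm and Txnrd1 were higher, by 1.01 and 0.90, and neither was called without replicate 1, at 0.62 and 0.64. Of 35 ribosomal genes 18 were lower, of 21 respiratory chain genes 10, and of 14 hypoxia and glycolysis genes 4, where 4.95% of all genes were lower. Without replicate 1 or replicate 2, 3 or 8 of the ribosomal, 4 or 3 of the respiratory chain and 2 or 2 of the glycolysis genes were still called.

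In kidney the largest rises besides snoRNAs were Itgb8, an integrin, at 14.2 and 19.9 CPM against 0 to 9.50, and Dnajb12, at 67.5 and 59.6 against 6.79 to 27.7. The fatty acid oxidation enzyme Acadm was higher by 0.52, the glucose-6-phosphatase G6pc by 0.65, and Gclm and Gclc by 0.73 each. Acadm and G6pc were not called when either olanzapine replicate was left out, and Gclc was not called without replicate 1, at 0.43. The collagen glycosyltransferase Colgalt2 was lower, at 5.33 and 1.81 CPM against 13.6 to 25.7. In kidney 21 of 35 ribosomal genes were lower, against 3.92% of all genes, and 3 or 6 of them were called without replicate 1 or 2.

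In pituitary gland Pgc, a pepsinogen, was at 35.7 and 44.6 CPM against 1.34 to 10.5, and the transcriptional inhibitor Id3 was lower, at 5.64 and 8.11 against 22.1 to 37.9. Prl, the hormone that rises when dopamine receptors are blocked, was lower, at 11064 and 13112 CPM against 14716 to 25047, a difference of -0.48. That reference includes Asenapine and Lurasidone, which are antipsychotics too, so it is not a difference from mice without such a drug. The groups did not overlap, but the call was lost when either olanzapine replicate was left out, at -0.36 without replicate 1 (adjusted p 0.33 by edgeR) and -0.60 without replicate 2 (adjusted p 0.0688), and the sign turned against the 3 control groups. Of 8 muscle markers tested in this tissue 5 were higher (3.89% of all genes were), with sums of 742.9 and 182.4 CPM against a reference range of 11.995 to 585.6 (median 23.3), and 0 or 5 of them were called without replicate 1 or 2. Their part in the other values was not tested.

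In thymus the largest rises besides Snord89 were the histone genes Hist2h2ac, at 60.8 and 121.1 CPM against 9.80 to 32.6, and Hist1h2an, at 24.3 and 44.9 against 4.02 to 13.95. The same genes led in skull, Hist2h2ac at 72.4 and 61.4 against 5.98 to 16.3 and Hist1h2an at 35.3 and 16.2 against 2.53 to 9.10. None of these ranges overlapped. The GTPase activator Tbc1d13 was lower in skull, at 13.5 and 8.08 CPM against 28.3 to 49.3.

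In liver the lipogenic factor Srebf1 was lower, at 26.8 and 32.9 CPM against 52.4 to 204, a difference of -1.87, and this call was lost without replicate 1, at -1.73 (adjusted p 0.0688 by edgeR). Malat1 and the lipid droplet gene Plin2 were each higher by 0.72, but Plin2 by 0.39 without replicate 1, which was not called. In lung the neutrophil genes S100a8, S100a9, Ngp and Camp were higher, by 3.32, 3.11, 4.23 and 3.07. When either olanzapine replicate was left out Ngp and Camp were no longer called, with adjusted p of 0.126 to 0.181. The summed myeloid markers there were 2184 and 1203 CPM against 963.1 to 1225, so replicate 1 alone was above the reference range. In pancreas 8 of 12 exocrine genes were lower, against 2.5% of all genes, with sums of 310919 and 308441 CPM against 351353 to 487048, and 5 or 6 of them were called without replicate 1 or 2. Cela3b differed by -0.92 and Cela2a by -0.87, and the insulin genes Ins1 and Ins2 by -0.71 and -0.68, the insulin calls being lost when either olanzapine replicate was left out (Ins1 at -1.04 without replicate 1 and -0.46 without replicate 2, Ins2 at -0.97 and -0.45). Amy2b was higher by 1.40, which is uncertain because near-identical amylase copies lie beside it.

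The response of each tissue was then tested against that of the other 23. Over all tissues 833 differences were called in 799 genes (0.492% of pairs of gene and tissue), and 686 of the 833 were in skin (410, 5.28%), stomach (203, 2.67%) and white adipose tissue (73, 0.926%). Of the shared genes 304 differed in at least 1 tissue and none in more than 2. Eye, heart, kidney, pituitary gland, spleen and testis had 0 (0%) by edgeR. Genes at an unadjusted p under 0.05 there numbered 259, 290, 395, 368, 241 and 351.

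In skin the genes that differed were led by macrophage genes. Fewer differences than the 410 were called when either olanzapine replicate was left out. The complement subunit C1qc was 107.8 and 153.8 CPM in olanzapine against 4.23 to 145.5 (median 20.7), C1qb 209.4 and 120.1 against 1.56 to 176.7 (median 27.1), and the mannose receptor Mrc1 237.1 and 203.5 against 11.3 to 175.4 (median 21.3). The first pair overlapped the reference range and Mrc1 did not. Of 20 matrix genes 19 were higher in skin, of 10 adipocyte genes 8, of 11 muscle genes 10 and of 7 myeloid genes 7, against 8.95% of all genes. Of 7 epidermal genes 3 were lower and of 19 sterol synthesis genes 8, against 4.43%. Of those calls the matrix list had 11 without replicate 1 and 17 without replicate 2, the adipocyte list 7 and 6, the muscle list 3 and 3, the myeloid list 4 and 6, the epidermal list 0 and 0 and the sterol list 2 and 3. Adipocyte markers summed to 3652 and 3977 CPM against 341.7 to 4273 (median 988.6) and epidermal markers to 10908 and 11649 against 11528 to 23564 (median 20194). The layers of skin taken into a sample were not recorded in the labels used here, and their part in these values was not tested.

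In stomach 18 of 21 respiratory chain genes were lower, 7 of 14 unfolded protein response genes and 5 of 17 hypoxia and glycolysis genes (9.29% of all genes were), and 8 of 19 matrix genes were higher (9.08%). Without replicate 2, 3 of the 18, 1 of the 7, 1 of the 5 and 0 of the 8 were still called, and without replicate 1, 17, 4, 2 and 8. Uncoupling protein Ucp2 differed by -2.24, Herpud1 by -1.65, somatostatin Sst by -1.41 and ghrelin Ghrl by -0.69, the last at -0.25 and not called without replicate 2. Abca12, a lipid transporter of keratinised epithelium, was 69.7 and 78.6 CPM against 12.4 to 31.4, and 5 of 7 epidermal genes were higher, with sums of 7930 and 12711 CPM against 5801 to 9616, and 1 of the 5 was called without replicate 2. The gastric gland gene Atp4a was 2391 and 598.4 CPM against 1818 to 3881. The low values of Gkn1, Tff1 and Atp4a were in replicate 2, and without it 140 genes were called in stomach and 4 differed from the other tissues, against 359 that differed without replicate 1.

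In white adipose tissue the differences were led by Nucb2, at 63.3 and 1765 CPM against 39.6 to 66.3, and Cd52, at 19.0 and 677.4 against 21.7 to 38.8. Both are high in replicate 2 alone. Without replicate 2 none of the 73 differences in this tissue was called, and without replicate 1 there were 175. Svs5, which encodes a seminal vesicle protein, was 26.4 CPM in replicate 1 and 105200 in replicate 2, against 0 to 33.1. Other genes moved in both replicates: Tagln, an actin-binding protein of smooth muscle, at 99.1 and 333.2 CPM against 20.2 to 81.3, and Tbx3, a developmental transcription factor, at 63.3 and 265.6 against 12.05 to 52.0.

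The other tissues had few differences: 36 in pancreas (1.2%), 27 in bone marrow (0.415%), 25 in jejunum (0.319%), 11 in aorta (0.153%) and thymus (0.152%), 9 in colon (0.114%), 7 in adrenal gland (0.0898%) and 6 in brain (0.0866%). Liver, skeletal muscle and thyroid gland had 3 (0.0508%, 0.0488% and 0.0378%), parotid gland and skull 2 (0.0339% and 0.0268%), and ileum and lung 1 (0.0128% each). In bone marrow and colon the named genes that differed had moved the other way elsewhere: Ndufb7, of complex I, was -0.56 in the other tissues and 0.32 in bone marrow, and Aup1 -0.39 and 0.57 in colon. Against the 2 bisphosphonates alone 0 differences were called in bone marrow, colon and ileum, and against the 2 antipsychotics alone 128, 122 and 75. Thyroid gland had 77 and 1 and adrenal gland 22 and 0 against these 2 references. In jejunum Rn45s, the precursor of ribosomal RNA, was 14900 and 8287 CPM against 55620 to 88110, and the nuclear factor Acin1 was 223.7 and 176.6 against 284.2 to 395. In pancreas Eif4a1, a translation factor, was 14.7 and 15.5 against 26.4 to 48.2. None of these 3 overlapped the reference range. In adrenal gland the fat synthesis gene Dgat2 was 213.4 and 83.2 against 24.4 to 118.7, where brown fat markers summed to 1106 and 426.2 CPM against 61.6 to 662.1 (median 183.4). In aorta the cardiac genes Tnnt2 and Actc1 were 278 and 228.1, and 395.7 and 430, against reference ranges of 0 to 244.6 and 0 to 494.1, which overlapped. The part of neighbouring tissue in the adrenal and aortic values was not tested.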

How the data were processed

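Messenger RNA of 24 tissues was counted with a 3′ kit. Per the submitters' processing notes, bcl2fastq 2.17, TopHat2 2.1.1, HTSeq 0.9.1 and mm10 were used, and the authors deposited raw counts for 24421 gene symbols per tissue. No aligner setting is given in the sources used here. Genes with too few counts (minimum count 10, edgeR's filter) were left out per tissue. The joint and single-tissue comparisons used edgeR 4.0.16 (quasi-likelihood F-test, TMM scaling, prior count 2 for log2 CPM), the single-tissue fits taking their spread from all 18 groups. The test of a tissue against the other 23 used the same edgeR F-test in the joint fit. Tissue-averaged profiles used limma 3.58.1, in R 4.3.3, and DESeq2 1.42.0 was an alternative. P-values were adjusted by Benjamini-Hochberg over all genes tested with a threshold of 0.05. The steps were tested on simulated data. The members and gene lists were chosen with earlier results of these data known.

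Genes are named by fixed rules: the 15 shared genes with the largest difference in each direction, at 5 CPM or more on average, leaving out Gm and Rik symbols, of which 59 were shared; shared members of the gene lists; up to 4 genes per direction in the 8 tissues with the most calls; and the genes with the lowest p in each tissue that differed from the other 23. Of genes with 3 or fewer counts in the olanzapine libraries of a tissue no fold is given. Transcript length and GC came from GENCODE M21, and the correction used a spline with 4 degrees of freedom for each. No library or column was left out of the edgeR fits. The tissue-averaged profiles of Asenapine were those of replicates 3 and 4. Its libraries with other numbers, in brain and pituitary gland, entered the reference mean but no profile. A few members of the gene lists are counted but not reported here by name.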

Additional observations from a re-analysis of the deposited data

Results flagged for a closer look

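Each entry here is a response to olanzapine in 1 tissue that differed from the response in the other 23 tissues. The test was edgeR's, of the difference itself. Counts per tissue were 410 in skin, 203 in stomach, 73 in white adipose tissue, 36 in pancreas, 27 in bone marrow, 25 in jejunum, 11 in aorta, 11 in thymus, 9 in colon, 7 in adrenal gland, 6 in brain, 3 each in liver, skeletal muscle and thyroid gland, 2 each in parotid gland and skull, and 1 each in ileum and lung. Without olanzapine replicate 1 or replicate 2 these became 117 or 0 in thymus, 50 or 69 in pancreas, 0 or 42 in adrenal gland, 1 or 17 in liver, 0 or 2 in bone marrow, 2 or 0 in jejunum, and 0 or 0 in colon and brain.

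The values that follow are the difference between a tissue's log2 response and that of the other 23. In skin the complement genes C1qc (2.83) and C1qb (2.52) led. In stomach Arpc1b, of the actin-nucleating complex, differed by -1.38 and the mitochondrial gene Chchd2 by -0.86. In white adipose tissue Nucb2 differed by 3.87 and Cd52 by 3.60, both from replicate 2 alone. In adrenal gland Dgat2 (1.78) and the acyl-CoA ligase Acsl1 (1.14) were higher than elsewhere. In aorta the cardiac genes Tnnt2 and Actc1 differed by 4.76 and 5.13, with reference libraries reaching the same level.

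Bone marrow and colon held genes that fell elsewhere: Ndufb7 differed by 0.88 and Exoc7, of the exocyst, by 1.25 in bone marrow, and Aup1 by 0.96 and Rpl36 by 0.55 in colon. In ileum Plvap, an endothelial gene, differed by 1.09. In jejunum Acin1 differed by -0.82 and Rn45s by -2.96. In brain the initiation factor Eif1ax differed by 1.08 and Nme2 by -0.68. In pancreas Eif4a1 differed by -1.10 and Ski by 1.26.

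In liver Id2 differed by 1.45, with 989 CPM in replicate 1 and 314.8 in replicate 2 against 92.7 to 541.4, and Atxn1 by 1.06. In lung Nrgn, which is known from neurons and platelets, differed by 1.52, with 337.6 and 330.1 CPM inside a reference range of 53.6 to 364.7. In parotid gland Chtop differed by 0.83 and Actl6a by -1.57. In skeletal muscle Nsl1 differed by 2.18 and Ctbp2 by -1.29, and in skull Ndufs8 by -1.33 and Clip4 by 1.57. In thymus Ndufa4 differed by -1.30 and Bcas2 by -1.01. In thyroid gland Sh3kbp1 differed by -1.75 and Cyp2f2 by 1.83, the latter with 14.8 and 198.6 CPM in the 2 olanzapine libraries.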

How the results depend on the processing

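The 2860 shared genes were 2853 with DESeq2, 2801 without TMM scaling, 3311 with no filter, 2394 against the bisphosphonates, 3179 against the antipsychotics, 2642 without white adipose tissue, skin and stomach, 2634 to 2903 without 1 tissue and 2048 to 2895 without 1 replicate (1090 to 1608 higher, 951 to 1301 lower; joint fit 3143 to 4343, profiles 2885 to 4000). For the DESeq2 count only the joint fit was replaced, while the limma profile calls and the edgeR signs in single tissues were kept. That count therefore bears on the joint fit alone. With a minimum count of 30, which tests fewer genes, the joint fit called 2544 and the profiles 2363. There 1810 were shared, 980 higher and 830 lower. The difference between the profiles of replicates 1 and 2 correlated at -0.07 to 0.17 between drugs. Between tissues within olanzapine the same difference correlated at -0.11 to 0.18, with a median of 0.01. Correlations between drugs cannot show whether same-numbered libraries of 1 drug share a mouse, and the labels do not say. With the replicate block, and so without Asenapine, whose numbers differ, the joint fit called 3550, the profiles 3229 and 2275 were shared. Without Asenapine and without the block these were 3543, 3095 and 2242. The 9110 calls summed over single tissues were 5619 with the replicate block, 5471 without Asenapine and the block, 5947 with DESeq2, 65454 against the untreated and the 2 vehicle groups, and 2199 to 8743 without 1 replicate. The 833 differences between tissues were 1323 against the bisphosphonates and 419 to 871 without 1 replicate; the cause was not tested.

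None of the 30 named shared genes reversed. Of 136 other shared list members 45 lost the call without olanzapine replicate 1, 41 without replicate 2, 40 with the replicate block, 37 without Asenapine and the block, 36 against the bisphosphonates, 25 against the antipsychotics and 32 with the length and GC correction. Reversed list members against the bisphosphonates were Mt1 (0.37), Rpl19 (0.0259), Rps14 (0.000212), Psma4 (-0.0672), Psma7 (-0.0355), Psmb3 (0.0362), Ctsd (0.0158) and Luc7l (-0.0307), and against the antipsychotics Jund (-0.14). With the replicate block they were Ddit4 (0.20), Nfkbia (0.13) and Luc7l (-0.0053), the last also at -0.0053 without Asenapine and without the block. Against the 3 control groups Prl in pituitary gland was 0.0644 and Lor in skin 0.16. With the length and GC correction Taldo1 (0.0135), Aldoa (0.000585), Pgam1 (0.0147), Rpl13 (0.10), Rpl19 (0.0748), Rpl27 (0.0190), Rps14 (0.10), Sdhb (0.11), Psmb3 (0.0125), Ctsd (0.0158), Kcnq1ot1 (-0.29) and Luc7l2 (-0.0036) reversed. Against the other tissues, Cyp2f2 in thyroid gland ranged from -0.98 without olanzapine replicate 2 to 2.67 without replicate 1, Nucb2 in white adipose tissue from -0.12 to 4.91 and Cd52 there from -0.75 to 4.68. Alternatives added after seeing the data were the length and GC correction, the sets of tissues left out and the fit without Asenapine and without the block. At this depth small differences in low genes of single tissues were not detectable.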
